A study of Drosophila melanogaster with 20 samples.

Results

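Wing imaginal discs of Drosophila that carried EGFR, the epidermal growth factor receptor, without a further construct were compared between day 4, when the labels call them early-hyperplastic tumors (E_EHT), and 12 hr, before tumors had formed (E_Ctrl). The comparison used 7 of the 20 arrays of the series: E_EHT replicates 2, 3 and 4 and E_Ctrl replicates 1 to 4, each chosen by its sample title, and 13402 genes that were measured on all arrays. E_EHT replicate 1 was left out because the submitters discarded it for technical problems. Each array held total RNA of about 20 pairs of dissected discs on an Affymetrix platform, and the labels call the arrays biological replicates. In the other genotype of the series EGFR was combined with psqRNAi, that is, with RNA interference that targets psq (the gene pipsqueak), and that genotype was measured at 12 hr (EP_Ctrl, 4 arrays), at day 4 (EP_EHT, 4 arrays) and at day 11 (EP_LNT, 4 arrays). E_Ctrl and E_EHT both carried EGFR and lacked psqRNAi, so the comparison shows what differed with time and not what EGFR itself changed. Age of the discs and growth of the tissue cannot be told apart in it. The EGFR construct, its driver, the cells in which it was active, and the event from which 12 hr and day 4 were counted are not given in the sources used here.

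The wing disc is a larval epithelial sac that is patterned into wing and notum and turns into adult structures at metamorphosis. EGFR signals through Ras and the MAP kinase cascade, and its activity in discs drives growth. Discs that are damaged or overgrown are known to signal through JNK, the stress-activated kinase pathway, and to secrete the relaxin-like hormone Ilp8, which delays metamorphosis. The steroid hormone ecdysone and larval identity factors such as the BTB-domain protein Chinmo control the timing of that transition.

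Levels are deposited log2 values on which a difference of 1 is a change of 2-fold. A gene is said to have risen or fallen when its adjusted p was below 0.05 in limma, a linear model fitted over all 13402 genes, and fold changes are E_EHT against E_Ctrl with the standard error (SE) of that model. All values are from bulk tissue, in which fewer cells of a type and less RNA per cell cannot be told apart. The medians of the arrays lay between 7.29 and 7.39. Pairs of E_Ctrl arrays differed by an SD of 0.243 to 0.365 over all genes, and pairs of E_EHT arrays by 0.297 to 0.382. The 19 measured markers of the wing disc epithelium averaged 10.03 to 10.15 on the E_Ctrl arrays and 10.04 to 10.16 on the E_EHT arrays. Single markers differed by -0.43 to 0.31 in log2. Every E_EHT array lay above every E_Ctrl array for 7 of them and below for 3, against 11.3% and 14.8% of all genes. None of the 19 passed the test. None of the 22 haemocyte markers, 11 fat body markers, 15 salivary gland markers, 19 muscle markers, 11 myoblast markers or 30 gut markers passed either. The myoblast mean was nonetheless higher on all 3 E_EHT arrays (8.27 to 8.35) than on any E_Ctrl array (8.04 to 8.2), and 6 of its 11 markers had every E_EHT array above every E_Ctrl array, against 11.3% of all genes; its part in the results below was not tested. Salivary gland markers varied within both groups, with means of 7.62 to 11.06 in E_Ctrl and 7.08 to 10.65 in E_EHT. E_EHT replicate 4 stood apart for gut markers: the digestive protease gene Jon25Biii stood at 12.72 there, at 6.83 and 6.42 on replicates 2 and 3, and at 5.77 to 6.32 in E_Ctrl.

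Between 12 hr and day 4, 264 genes rose and 618 fell, together 6.58% of the genes tested. The rises were 1.97% and the falls 4.61% of them, and 3070 genes had an unadjusted p below 0.05. Most changes were small. The median log2 fold change was 0.45 among the rises (1.36-fold) and -0.34 among the falls (1.26-fold), against 0.02 over all genes, and 25 rises and 9 falls reached 2-fold. Arrays of both groups did not overlap for 868 of the 882 genes called. Over all genes tested, 11.3% had every E_EHT array above every E_Ctrl array and 14.8% had every one below. Rises made up 29.9% of the calls and 17.4% when each array was centred on its median, which gave 171 rises and 809 falls. The share was 17.7% with E_EHT replicate 1 kept, 38.4% with a further quantile normalization, 38.8% with a trend on gene span and level removed and 42.6% without E_EHT replicate 4. Leaving out 1 of the 7 arrays moved the counts to between 79 and 300 rises and between 190 and 665 falls. Without E_EHT replicate 4, the array with gut markers, 141 genes rose and 190 fell.

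**Figure D1:**
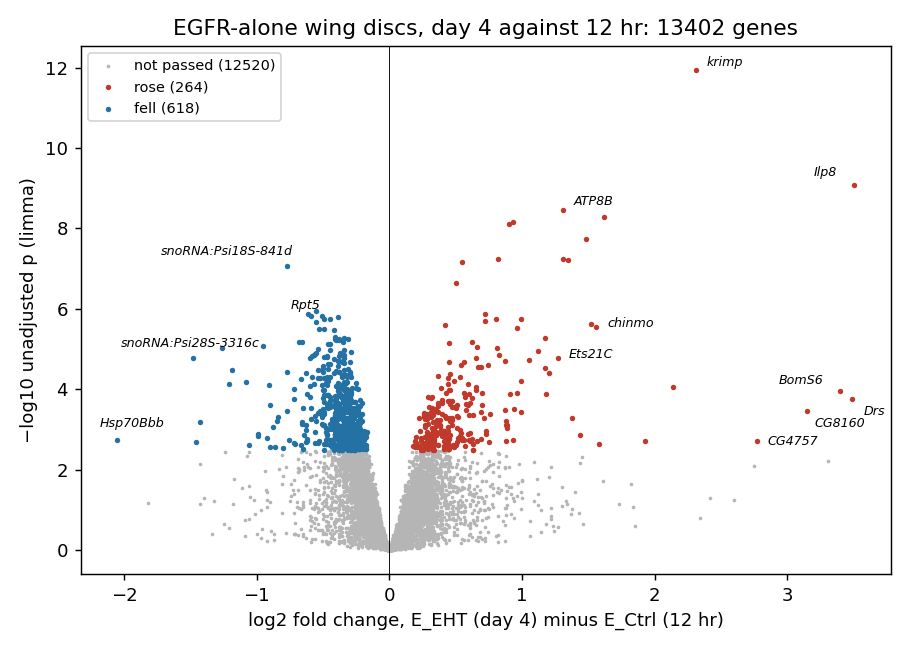
Log2 fold change of 13402 genes between E_EHT (day 4, 3 arrays) and E_Ctrl (12 hr, 4 arrays) against the negative log10 of the unadjusted limma p. Red points rose (264), blue points fell (618) and grey points did not pass; the rises reach 3.5 and most falls lie between 0 and -1.

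psq, the gene that the other genotype targets, stood at 11.12, 11.21 and 11.12 on E_EHT replicates 2 to 4 and at 10.81 to 10.93 in E_Ctrl. Egfr stood at 12.73, 12.84 and 12.79 on the same E_EHT arrays and at 12.38 to 12.55 in E_Ctrl. Both were higher on these 3 day 4 arrays than on any 12 hr array, but on E_EHT replicate 1, which was left out, they stood at 10.39 and 12.22, below every 12 hr array. The day 4 excess was 0.28 ± 0.1 for psq (adjusted p = 0.0845) and 0.3 ± 0.11 for Egfr (adjusted p = 0.117), and it did not pass in either. With replicate 1 kept the differences were 0.09 (adjusted p = 0.754) and 0.16 (adjusted p = 0.516). Construct and native transcripts of Egfr were not separated here.

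The gene with the largest rise was Ilp8 (chromosome 3L, 17029812 to 17032080, RefSeq Release 6), the relaxin-like hormone of disturbed discs. Its level was 8.06, 7.57, 7.72 and 7.69 on the E_Ctrl arrays and 11.54, 11.21 and 11.03 on the E_EHT arrays, so that the groups lay far apart. The rise was 11.3-fold, or 3.5 ± 0.28 on the log2 scale with an adjusted p of 5.62e-06. It passed under all 17 alternatives, which gave 3.36 to 3.62.

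Of 20 measured genes of JNK and stress signalling, 6 rose, against 1.97% of all genes, and none fell. The median log2 fold change was 0.14 over the list against 0.02 over all genes. Besides Ilp8, the rises were in Ets21C, an ETS-family transcription factor gene that JNK activates, ftz-f1, a nuclear receptor gene, Atf3, a bZIP factor gene, egr, which encodes the TNF ligand Eiger that acts upstream of JNK, and kay, the fly Fos gene. Ets21C (2L, 544925 to 552923) stood at 9.29, 8.67, 9.23 and 8.64 in E_Ctrl and at 10.4, 10.33 and 9.94 in E_EHT, a rise of 2.41-fold (1.27 ± 0.21, adjusted p = 0.00314). The annotated span of nAChRbeta3, which also rose (0.99 ± 0.22, adjusted p = 0.0159), lies within that of Ets21C, so the values of this pair may not be separate. egr stood between 8.39 and 8.61 in E_Ctrl and at 9.49, 9.36 and 9.33 in E_EHT, a tight pair of groups that differed 1.84-fold (0.88 ± 0.21, adjusted p = 0.0206). ftz-f1 rose by 1.12 ± 0.18 (adjusted p = 0.00272) and Atf3 by 0.88 ± 0.21 (adjusted p = 0.0234). kay changed little, 10.48 to 10.63 against 10.78 to 10.91, a difference of 0.3 ± 0.09 in log2 (adjusted p = 0.0428). Calls for Ilp8, Ets21C and ftz-f1 passed under all 17 alternatives. Leaving out E_Ctrl replicate 4, E_EHT replicate 2 or E_EHT replicate 3 left 3 rises in the list, with the adjusted p over the alternatives reaching 0.0755 for egr, 0.0928 for Atf3 and 0.393 for kay.

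**Figure D2:**
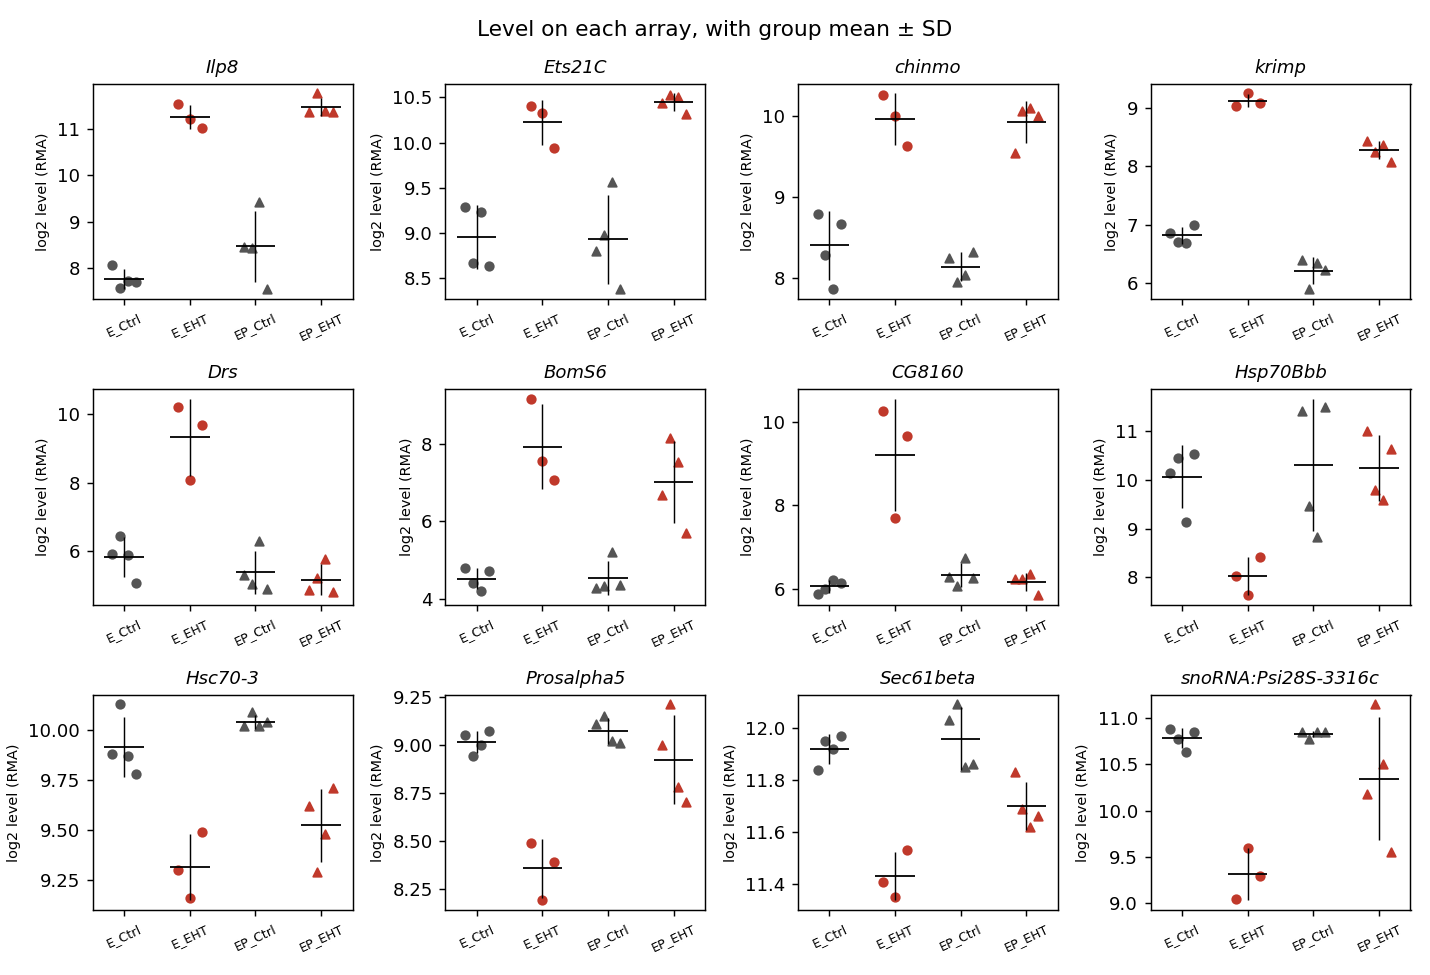
Log2 level of 12 genes on every array of E_Ctrl (12 hr) and E_EHT (day 4, without replicate 1), both EGFR alone (circles), and of EP_Ctrl (12 hr) and EP_EHT (day 4), both EGFR with psqRNAi (triangles). Red marks day 4, horizontal bars are group means and vertical bars 1 SD; Drs and CG8160 were near 9 in E_EHT and near 5 to 6 in the other groups, while Ilp8 and chinmo were high in both day 4 groups.

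chinmo (2L, 1651258 to 1704682), which encodes a BTB-domain factor of larval identity and is a known target of JAK/STAT signalling, rose 2.95-fold. Its level was 8.79, 8.28, 7.86 and 8.67 in E_Ctrl and 10.25, 10 and 9.62 in E_EHT, a difference of 1.56 ± 0.23 in log2 (adjusted p = 0.00137). It was 1 of 2 rises among 11 temporal factors, together with the RNA-binding protein gene Imp (0.46 ± 0.09, adjusted p = 0.00852). It was also 1 of 3 rises among 11 BTB-domain factors, together with fru (0.87 ± 0.15, adjusted p = 0.00341) and ken (0.46 ± 0.11, adjusted p = 0.0199). The share of rises over all genes was 1.97%. Of 10 JAK/STAT genes, chinmo and ken rose, against 1.97% of all genes, and the list median was 0.24. For 7 of the 10 every E_EHT array lay above every E_Ctrl array, against 11.3% of all genes, and for 0 below. The list mean was 9.29 to 9.41 in E_Ctrl and 9.61 to 9.92 in E_EHT. On E_EHT replicate 1, which was left out, it was 9.35. upd2, a ligand of the pathway, stood at 7.83, 7.7 and 7.38 against 6.89 to 7.38 and did not pass (0.61 ± 0.21, adjusted p = 0.0861). The Hox gene Dfd, which specifies head segments, stood between 8.37 and 8.51 in E_EHT and between 7.08 and 7.78 in E_Ctrl, a rise of 1.98-fold (0.99 ± 0.14, adjusted p = 0.00104); it was the only 1 of 4 measured Hox genes to pass. The calls for Imp and ken were lost with E_EHT replicate 1 kept and without E_EHT replicate 3. That for ken was lost also with only the groups compared and without E_Ctrl replicate 2 or E_EHT replicate 2. The adjusted p reached 0.201 for Imp and 0.0895 for ken.

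Genes of the piRNA pathway, which silences transposons and acts mainly in the germ line, held the change with the smallest adjusted p of the comparison, in krimp. krimp (2R, 16238103 to 16240722), a Tudor-domain gene of the ping-pong amplification of piRNAs, stood at 6.86, 6.7, 6.69 and 7 in E_Ctrl and at 9.04, 9.25 and 9.08 in E_EHT. That was a 4.96-fold rise (2.31 ± 0.12, adjusted p = 1.52e-08). Of 26 measured piRNA genes, 4 rose, against 1.97% of all genes, and none fell, while the median over the list was 0.01. The other rises were del (Deadlock), which takes part in transcription of piRNA clusters (0.93 ± 0.09, adjusted p = 1.7e-05), AGO3, a Piwi-clade Argonaute gene (0.82 ± 0.09, adjusted p = 8.28e-05), and SoYb (0.56 ± 0.11, adjusted p = 0.00946). AGO3 was dim, at 4.87 to 5.2 in E_Ctrl and 5.78 to 6.05 in E_EHT. SoYb lost its call without E_EHT replicate 3 and with E_EHT replicate 1 kept (adjusted p of up to 0.218), and the other 3 kept theirs wherever they were tested. tut, an RNA-binding protein gene known from male germ cells, was outside that list and rose as evenly, from 6.86 to 7.23 in E_Ctrl to 8.35, 8.31 and 8.36 in E_EHT (1.31 ± 0.14, adjusted p = 8.28e-05).

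Immune effector genes had large rises that differed between the E_EHT arrays. Drs (3L, 3369556 to 3369942), the antifungal peptide Drosomycin, stood at 5.92, 6.46, 5.89 and 5.07 in E_Ctrl and at 10.21, 8.07 and 9.69 on E_EHT replicates 2, 3 and 4, a rise of 11.2-fold (3.49 ± 0.73, adjusted p = 0.0112). The Bomanin gene BomS6 (2R, 18390353 to 18390629), one of the short Toll-induced peptides, stood between 4.2 and 4.79 in E_Ctrl and at 9.15, 7.56 and 7.05 in E_EHT (3.4 ± 0.68, adjusted p = 0.00877). Its neighbour BomT2 stood between 5.78 and 5.92 in E_Ctrl and at 8.89, 7.04 and 8.13 in E_EHT (2.14 ± 0.42, adjusted p = 0.00778). In all these genes replicate 2 was the highest E_EHT array, and every E_EHT array lay above every E_Ctrl array. Bomanin genes resemble each other in sequence and the E_Ctrl levels of BomS6 lie among the dim genes, so their separate folds are uncertain. Of 22 measured antimicrobial peptide and Bomanin genes these 3 rose, against 1.97% of all genes, and none fell. The list mean was 5.61 to 5.85 in E_Ctrl and 6.02 to 6.82 in E_EHT. Metchnikowin (Mtk) shows how uneven the group was: it stood at 11.26 on E_EHT replicate 2, at 7.42 and 6.76 on the others and at 6.93 to 7.64 in E_Ctrl, and it did not pass (adjusted p = 0.266).

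Other genes were uneven too, with their lowest E_EHT value on replicate 3, as in Drs and BomT2, whereas BomS6 and Mtk were lowest on replicate 4. CG8160 (2R, 15327143 to 15328271), whose product is uncharacterised, stood at 5.88 to 6.22 in E_Ctrl and at 10.26, 7.69 and 9.67 in E_EHT (8.89-fold, 3.15 ± 0.7, adjusted p = 0.0155). CG4757 stood at 5.12 to 5.46 in E_Ctrl and at 9.04, 5.78 and 9.23 in E_EHT (2.77 ± 0.75, adjusted p = 0.0378). SPH93, a serine protease homolog gene, rose by 1.93 ± 0.53 (adjusted p = 0.0378) and Tsf1, which encodes an iron-binding transferrin of the haemolymph, by 1.44 ± 0.38 (adjusted p = 0.0315). On E_EHT replicate 3 these stood at 7.37 and 9.08, against 8.8 or more and 9.77 or more on the other 2 arrays. Marker lists also differed between the E_EHT arrays. The mean of 22 haemocyte markers was 8.72 on E_EHT replicate 2, where Drs, BomS6, BomT2, Mtk and CG8160 were highest, above the E_Ctrl arrays (8.26 to 8.47), and 8.32 and 8.23 on replicates 3 and 4. The mean of 30 gut markers was lower on E_EHT replicate 3 (6.4) than on E_Ctrl arrays (6.56 to 6.83) and higher on replicate 4 (7.35), and the 11 fat body and haemolymph markers spanned 9.43 to 9.81 in E_Ctrl and 9.45 to 9.78 in E_EHT. Their part in the immune rises was not tested. Without E_EHT replicate 2, 1 of the 3 peptide genes, BomT2, passed. Leaving out E_EHT replicate 2 or 4 ended the calls for Drs, CG8160, CG4757, SPH93 and Tsf1, with adjusted p of up to 0.0567, 0.0767, 0.171, 0.142 and 0.139 over the alternatives, and leaving out replicate 2 ended that for BomS6 (up to 0.0515). The call for BomT2 was kept under all 17. CG4757 and SPH93 lost their calls also without any 1 of the E_Ctrl arrays, and Tsf1 without E_Ctrl replicate 2, 3 or 4. With the replicate number as a block SPH93 and Tsf1 lost theirs. CG4757 lost its call with a robust trend of the variance and with only the groups compared.

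Among 26 Toll and PGRP signalling genes, 3 rose, against 1.97% of all genes, and none fell, with a median of 0.06. They were the NF-kB factor genes Dif and Rel and the amidase gene PGRP-LB, whose product degrades bacterial peptidoglycan. Dif stood at 8.07 to 8.43 in E_Ctrl and at 9.08, 8.96 and 8.63 in E_EHT (0.67 ± 0.12, adjusted p = 0.00416). PGRP-LB rose by 0.46 ± 0.11 (adjusted p = 0.0208) and Rel by 0.26 ± 0.06 (adjusted p = 0.0172). Without E_Ctrl replicate 4 or E_EHT replicate 2, Dif alone passed.

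Some genes of the extracellular matrix rose. Of 25 genes of the extracellular matrix and its adhesion, 4 rose, against 1.97% of all genes, and none fell, with a median of 0.16. Ndg, which encodes nidogen of the basement membrane, stood between 6.87 and 7.23 in E_Ctrl and at 8.27, 7.99 and 7.73 in E_EHT (1.99-fold, 0.99 ± 0.19, adjusted p = 0.00637). The laminin chain genes LanA (0.45 ± 0.12, adjusted p = 0.0357) and LanB1 (0.35 ± 0.09, adjusted p = 0.029) and rhea, the fly talin (0.38 ± 0.09, adjusted p = 0.0233), rose less. Without E_Ctrl replicate 4, E_EHT replicate 2 or E_EHT replicate 3, 1 of the 4 passed. With E_EHT replicate 1 kept, Ndg alone of the 4 passed. Tig, an integrin ligand, had a similar difference to Ndg with more spread, 9.69, 9.18 and 8.91 against 8.16 to 8.44, and did not pass (adjusted p = 0.0835).

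Chitin is the polysaccharide of the apical cuticle. Of 21 genes of its synthesis and remodelling, 4 rose, against 1.97% of all genes, and none fell, with a median of 0.25. The chitinase genes Cht6 (0.71 ± 0.16, adjusted p = 0.0188) and Cht7 (0.51 ± 0.12, adjusted p = 0.0174) passed. So did the deacetylase genes verm (0.37 ± 0.07, adjusted p = 0.00539) and serp (0.27 ± 0.08, adjusted p = 0.0408). Without E_EHT replicate 2 or 3, and with E_EHT replicate 1 kept, verm alone of the 4 passed. The adjusted p reached 0.204 for Cht6, 0.165 for Cht7 and 0.171 for serp over the alternatives. Of 39 cuticle protein genes only Cpr76Bc passed (0.6 ± 0.16, adjusted p = 0.0362), and its call was lost under 10 of the 17 alternatives (up to 0.129). Among 14 tracheal markers 3 rose, against 1.97% of all genes. They were dpy, the giant apical matrix protein Dumpy (0.73 ± 0.19, adjusted p = 0.0311), osp (0.49 ± 0.09, adjusted p = 0.00657) and uif, an apical membrane protein gene (0.41 ± 0.11, adjusted p = 0.043). The tracheal list mean was 9.51 to 9.66 in E_Ctrl and 9.72 to 9.74 in E_EHT, and its part in these rises was not tested. With E_EHT replicate 1 kept none of the 3 passed, and leaving out E_Ctrl replicate 3 or 4 or any E_EHT array left 1, osp. Of 21 neuron and glia markers moody, a receptor gene of the blood-brain barrier, rose from 7.24 to 7.59 in E_Ctrl to 8.1, 8.09 and 7.78 (0.62 ± 0.16, adjusted p = 0.035), a call that was lost without any array but E_Ctrl replicate 3 (up to 0.129). Osi15 was the only 1 of 23 Osiris genes to rise (2.86-fold, 1.52 ± 0.22, adjusted p = 0.00124), from 6.37 to 7.01 in E_Ctrl to 8.69, 8.25 and 7.74.

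Ecdysone response genes moved in both directions. Their median was -0.15, against 0.02 over all genes. Every E_EHT array lay above every E_Ctrl array for 5 of them and below for 6, against 11.3% and 14.8% of all genes. Of 27 measured, ftz-f1 and the receptor gene EcR (0.5 ± 0.11, adjusted p = 0.0144) rose, against 1.97% of all genes. Sec61gamma, ImpL2 and Cth fell, against 4.61% of all genes. The call for EcR was lost with E_EHT replicate 1 kept and without E_EHT replicate 2 or 3 (up to 0.133), and that for ImpL2 under 7 of the 17 alternatives (up to 0.126). Sec61gamma, ImpL2 and Cth are in the list through early descriptions as ecdysone-inducible transcripts; Sec61gamma encodes a translocon subunit. The targets with the largest differences were spread within E_Ctrl: Blimp-1 stood at 7.66, 9.75, 9.51 and 8.32 there and at 7.62, 7.93 and 8.45 in E_EHT (-0.81 ± 0.5, adjusted p = 0.355). ImpE2, an ecdysone-induced gene of disc eversion, stood at 12.7, 13.22, 13.19 and 12.74 against 11.63, 11.92 and 12.45 (-0.96 ± 0.88, adjusted p = 0.567), and the protease gene Sb at 9.36 to 10.1 against 8.87 to 9.35 (-0.6 ± 0.31, adjusted p = 0.258). For Blimp-1 and ImpE2, E_Ctrl replicates 2 and 3 were above replicates 1 and 4, and for Blimp-1 the lowest 12 hr array lay within the range of the day 4 arrays.

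Several of the largest changes were in genes of no list. CG14321 stood at 8.71, 8.68 and 8.73 in E_EHT and at 6.81 to 7.5 in E_Ctrl (3.08-fold, 1.62 ± 0.15, adjusted p = 1.7e-05). The phospholipid flippase gene ATP8B rose 2.49-fold (1.31 ± 0.12, adjusted p = 1.55e-05), from 7.34 to 7.66 in E_Ctrl to 8.65 to 8.95. CG41520 (1.48 ± 0.15) and l(2)41Ab (1.35 ± 0.15) had adjusted p of 3.48e-05 and 8.28e-05. All 4 calls were kept under all 17 alternatives. CG42807 rose by 1.38 ± 0.32 (adjusted p = 0.0186), and the call was lost without E_Ctrl replicate 4, E_EHT replicate 2 or E_EHT replicate 3 (adjusted p of up to 0.109). Among the falls, CG14915 stood at 7.63, 7.78, 7.65 and 7.67 in E_Ctrl and at 6.28, 6.55 and 6.66 in E_EHT (2.28-fold lower, -1.19 ± 0.21, adjusted p = 0.00453), and CG15905 fell by 1.08 (adjusted p = 0.00678), both under all 17. CG12926 fell by 1.21 (adjusted p = 0.00694), CG32115 by 1.43 (adjusted p = 0.0211) and Tsp42Ek, a tetraspanin gene, by 1.06 (adjusted p = 0.0418). On E_EHT replicate 1, which was left out, these 3 stood at 8.82, 7.5 and 9, above every E_Ctrl array, and with it kept their calls were lost, with adjusted p of 0.241, 0.243 and 0.2. CG32115 lost its call also without E_Ctrl replicate 1 or 4 or any E_EHT array, and Tsp42Ek when any 1 of the 7 arrays was left out.

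**Figure D3:**
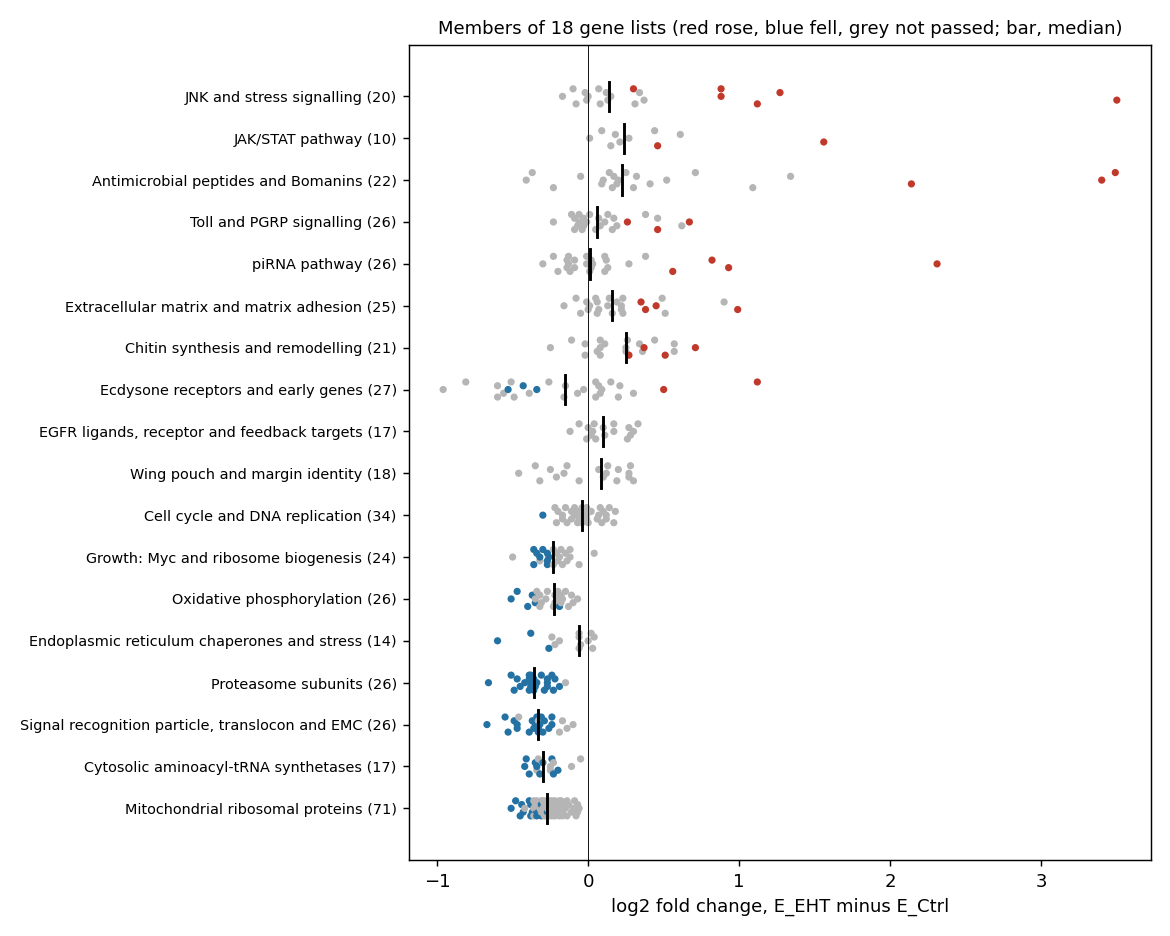
Log2 fold change (E_EHT minus E_Ctrl) of every measured member of 18 gene lists, with the number measured after each name. Red members rose, blue members fell, grey ones did not pass and black bars are list medians; 25 of 26 proteasome subunits are blue, and no EGFR pathway or wing pouch gene is coloured.

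The falls were many and small, and subunits of several protein complexes were among them. The complexes were gathered by gene symbol after their values had been seen, so their counts are descriptions. Of 26 measured subunits of the proteasome, which degrades ubiquitinated proteins, 25 fell, against 4.61% of all genes, with a median of -0.36. Prosalpha5, of the catalytic core, stood at 9.05, 8.94, 9 and 9.07 in E_Ctrl and at 8.49, 8.19 and 8.39 in E_EHT (1.58-fold lower, -0.66 ± 0.1, adjusted p = 0.00207). Rpt5, an ATPase of the regulatory particle, stood at 11.79 to 11.89 against 11.43 to 11.46 (-0.39 ± 0.05, adjusted p = 0.00104). Every one of the 26 had all E_EHT arrays below all E_Ctrl arrays, against 14.8% of all genes. Rpt2 was the subunit that did not pass (-0.15 ± 0.06, adjusted p = 0.121). Of 14 dim paralogs whose names end in T or R, forms known from testis, none passed, with a median of 0.03.

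Proteins that enter the secretory pathway are brought to the endoplasmic reticulum by the signal recognition particle and pass the Sec61 translocon or the EMC insertase. Of 26 measured genes of these machines, 20 fell, against 4.61% of all genes, and none rose, with a median of -0.33. Sec61beta stood between 11.84 and 11.97 in E_Ctrl and at 11.41, 11.35 and 11.53 in E_EHT (1.41-fold lower, -0.49 ± 0.07, adjusted p = 0.00104). Sec61gamma fell by 0.53 (adjusted p = 0.00137), EMC2A by 0.55 (adjusted p = 0.00104) and Srp54k, the GTPase of the particle, by 0.34 (adjusted p = 0.00198). Of 11 genes of the COPI and COPII vesicle coats, 7 fell, against 4.61% of all genes. gammaCOP was among the 7 (-0.31 ± 0.05, adjusted p = 0.00198).

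Among 14 chaperones and stress regulators of the endoplasmic reticulum, 3 chaperone genes fell, against 4.61% of all genes, and no regulator passed. Hsc70-3, the fly BiP, stood at 9.88, 10.13, 9.87 and 9.78 in E_Ctrl and at 9.3, 9.16 and 9.49 in E_EHT (1.51-fold lower, -0.6 ± 0.1, adjusted p = 0.00314). Gp93 fell by 0.38 (adjusted p = 0.00341) and ERp60, a disulfide isomerase gene, by 0.26 (adjusted p = 0.0118). Ire1, PEK and Atf6, the sensors of unfolded proteins, had log2 fold changes of 0.04, 0 and 0.03. Further residents of the compartment, chosen after their values were seen, were wbl (-1.46 ± 0.4, adjusted p = 0.0394), which stood at 9.6 to 10.31 in E_Ctrl and at 8.2 to 8.78 in E_EHT, and Fkbp14 (-0.72 ± 0.15, adjusted p = 0.0112). The call for wbl was lost when any 1 of the 7 arrays was left out (adjusted p of up to 0.125). It was lost also with a further quantile normalization, with the replicate number as a block and with a trend on gene span and level removed.

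Of 17 cytosolic genes for the enzymes that load amino acids onto tRNAs, 10 fell, against 4.61% of all genes, with a median of -0.3. None of 14 mitochondrial synthetase genes passed, and their median was -0.12. Every E_EHT array lay below every E_Ctrl array for 15 of the cytosolic and 5 of the mitochondrial genes, against 14.8% of all genes. Whether these sets differed was not tested. beta-PheRS stood between 9.92 and 10.04 in E_Ctrl and at 9.67, 9.45 and 9.51 in E_EHT (1.34-fold lower, -0.42 ± 0.06, adjusted p = 0.00137), and AsnRS fell by 0.39 (adjusted p = 0.00693). Of 8 subunits of the CCT chaperonin, which folds actin and tubulin, 4 fell, against 4.61% of all genes. CCT1 fell most (-0.34 ± 0.06, adjusted p = 0.00303). Of 71 mitochondrial ribosomal proteins, 15 fell, against 4.61% of all genes, and none rose, with a median of -0.27. The 12 measured cytosolic ribosomal proteins had a median of -0.02 and none passed.

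**Figure D4:**
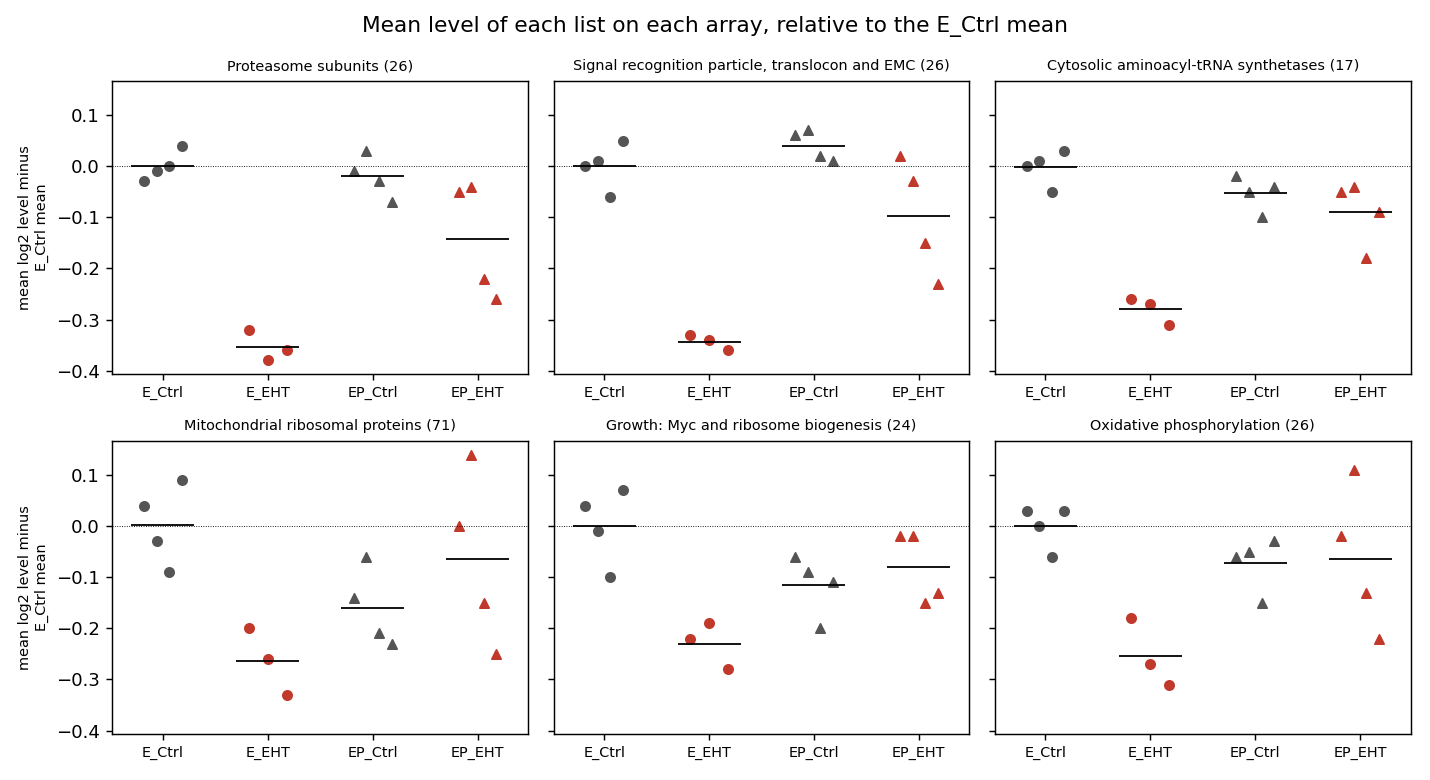
Mean log2 level of 6 gene lists on each array, relative to the mean of the E_Ctrl arrays, for EGFR alone (circles) and EGFR with psqRNAi (triangles), with day 4 in red and group means as bars. The E_EHT arrays lie between -0.32 and -0.38 for the proteasome, below all other arrays, while the EP_EHT arrays span -0.04 to -0.26.

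Ribosome biogenesis and energy genes also fell in part. Of 24 genes of Myc and ribosome biogenesis, 9 fell, against 4.61% of all genes, and none rose, with a median of -0.23. Nop56, of the box C/D particles that methylate ribosomal RNA, stood at 10.69 to 10.91 in E_Ctrl and at 10.46, 10.4 and 10.4 in E_EHT (-0.36 ± 0.1, adjusted p = 0.0347). Non3 (adjusted p = 0.0208) and Nnp-1 (adjusted p = 0.0118) fell by 0.32 and 0.3. Of 26 oxidative phosphorylation genes, 6 fell, against 4.61% of all genes, and none rose, with a median of -0.22. The 6 include COX8 of cytochrome c oxidase (-0.47 ± 0.1, adjusted p = 0.0126) and ATPsyngamma (-0.4 ± 0.08, adjusted p = 0.00749). Of 21 glycolysis genes, Gapdh1 (-0.49 ± 0.1, adjusted p = 0.00852), Pglym78 (-0.42 ± 0.12, adjusted p = 0.0492) and Pgk (-0.22 ± 0.06, adjusted p = 0.035) fell, against 4.61% of all genes. Without E_EHT replicate 4, 0 ribosome biogenesis genes and 1 oxidative phosphorylation gene passed. Pglym78 and Pgk lost their calls without any array but E_Ctrl replicate 3, with adjusted p of up to 0.147 and 0.115 over the alternatives. Both lost them also with a further quantile normalization and with the replicate number as a block. Pglym78 did so with E_EHT replicate 1 kept or a trend on gene span and level removed, and Pgk with only the groups compared. Leaving out 1 array left 13 to 23 proteasome falls, 10 to 19 translocon falls, 6 to 9 synthetase falls, 1 to 6 coat falls, 1 to 4 chaperonin falls and 1 to 16 falls of mitochondrial ribosomal proteins. The low ends were given by leaving out E_EHT replicate 3 for the proteasome, the coats and the mitochondrial ribosome, and E_EHT replicate 4 for the synthetases.

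The gene with the deepest fall was Hsp70Bbb (3R, 12502510 to 12504856), a copy of the stress-induced Hsp70 gene. It stood at 10.15, 10.46, 9.14 and 10.53 in E_Ctrl and at 8.03, 7.64 and 8.41 in E_EHT, 4.13-fold lower (-2.05 ± 0.55, adjusted p = 0.0366). Of 11 cytosolic heat shock genes, Hsp70Bbb and Hsp26 (-0.77 ± 0.17, adjusted p = 0.0155) fell, against 4.61% of all genes, and the median was -0.33. Hsp68 stood at 9.64 to 10.68 against 8.91 to 9.39 and did not pass (-1.06 ± 0.43, adjusted p = 0.15). Hsp70 copies are nearly identical, so the value belongs to the group of copies. The call for Hsp70Bbb was lost when any array but E_Ctrl replicate 3 was left out (adjusted p of up to 0.135). It was lost also with a trend on gene span and level removed. The call for Hsp26 was lost without E_EHT replicate 2 or 3 (up to 0.0778).

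Small nucleolar RNAs, which guide the modification of ribosomal RNA, held the next deepest fall. snoRNA:Psi28S-3316c (2R, 21330127 to 21330259) stood at 10.88, 10.78, 10.63 and 10.85 in E_Ctrl and at 9.04, 9.6 and 9.29 in E_EHT (2.78-fold lower, -1.48 ± 0.25, adjusted p = 0.00314). snoRNA:Or-aca1 stood at 10.26 to 10.73 against 9.25 to 9.37 (-1.26 ± 0.2, adjusted p = 0.00246), and snoRNA:Psi18S-841d at 12.93 to 13 against 12.03 to 12.32 (-0.77 ± 0.09, adjusted p = 9.48e-05). Of 214 measured, 18 fell and 1 rose, against 4.61% and 1.97% of all genes, and the median was -0.2. Without E_EHT replicate 4, 7 of them fell.

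Calls went with the length of the gene and with its level. The annotated span was a median of 5845 bases for rises, 1619.5 bases for falls and 2078 bases for genes that did not pass, and the median level was 8.66, 9.49 and 7.14 in the same order. With the genes in 10 classes of equal size by span, 74 rose and 2 fell in the class of the longest genes. In the third class from the shortest 11 rose and 97 fell. With 10 classes by level, 48 rose and 177 fell among the 1341 genes of the highest level. When a trend of each array on span and level was removed, over 13025 genes with a span, 252 genes rose and 398 fell. The proteasome then had 19 falls (median -0.26), the translocon list 13 (-0.24), the cytosolic synthetases 8 (-0.23), mitochondrial ribosomal proteins 9 (-0.2), coats 3 (-0.18) and the chaperonin 1 (-0.13). Ribosome biogenesis had 3 falls (-0.16) and oxidative phosphorylation 4 (-0.16). Small nucleolar RNAs had 12 falls and 5 rises, and their median moved from -0.2 to -0.03. Ilp8, chinmo, krimp, Hsc70-3, Prosalpha5 and Sec61beta passed with the trend removed as well.

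**Figure D5:**
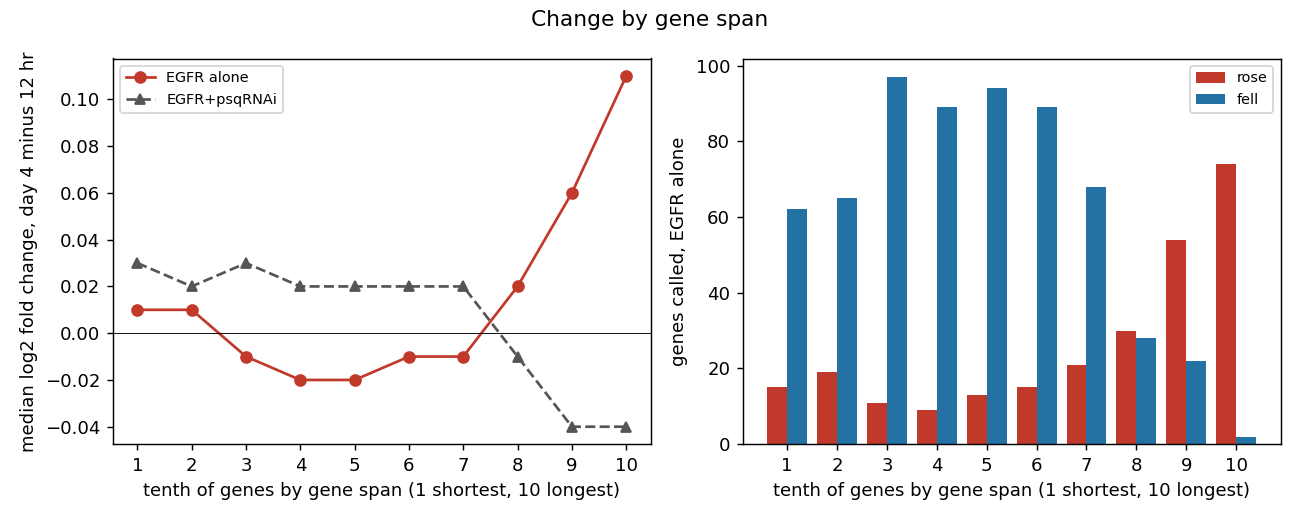
Left, median log2 fold change between day 4 and 12 hr in 10 classes of genes of rising span, for EGFR alone (red) and EGFR with psqRNAi (grey, dashed). Right, number of genes that rose and fell in EGFR alone in each class. The class of the longest genes holds 74 rises and 2 falls, with a median of 0.11 in EGFR alone and -0.04 with psqRNAi. Single arrays varied in that class. Relative to the E_Ctrl mean, its median was 0.083 to 0.136 on the E_EHT arrays and -0.129 to 0.191 on the EP_EHT arrays. It was -0.321 on E_EHT replicate 1, which was left out.

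Few genes of EGFR signalling, the cell cycle and growth signalling passed. Over all genes tested, 1.97% rose and 4.61% fell. None of 17 EGFR ligands, receptor and feedback targets passed, with a median of 0.1 against 0.02 over all genes. For 6 of the 17 every E_EHT array lay above every E_Ctrl array, against 11.3% of all genes, and for 0 below. The list mean was 10.2 to 10.29 in E_Ctrl and 10.33 to 10.45 in E_EHT. On E_EHT replicate 1, which was left out, it was 9.88. The largest differences were in aop, the repressor Yan that MAP kinase inactivates, which stood at 10.83 to 11.21 in E_Ctrl and 11.33 to 11.48 in E_EHT (0.33 ± 0.13, adjusted p = 0.146), and in Egfr itself. sty, a feedback inhibitor, stood at 10.42 to 10.63 against 10.7 to 11.06 (0.27 ± 0.14, adjusted p = 0.271). Of 34 cell cycle and DNA replication genes only E2f2 passed, a fall of 0.3 ± 0.08 (adjusted p = 0.0377) that was lost under 8 of the 17 alternatives (up to 0.146), and the list median was -0.04. Growth signalling by insulin and TOR had Ilp8 and REPTOR rise and ImpL2 fall among 21 genes. REPTOR, a factor that acts when TOR is inhibited, stood at 8.24 to 8.43 against 9.04, 8.93 and 8.97 (1.58-fold, 0.66 ± 0.11, adjusted p = 0.00246).

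Few patterning genes passed. None of 18 wing pouch and margin genes, 21 Dpp pathway genes or 21 Polycomb and trithorax genes passed, where 6.58% of all genes did. Every E_EHT array lay above every E_Ctrl array for 7 of the wing pouch and margin genes and below for 3. In the Dpp list 5 were above and 0 below, and in the Polycomb and trithorax list 7 and 4. Over all genes tested, 11.3% were above and 14.8% below, and 1.97% rose and 4.61% fell. Of 23 notum and proneural genes, ac, the proneural factor Achaete, fell (-0.62 ± 0.13, adjusted p = 0.00968), from 10.41 to 10.57 to 9.65, 10.03 and 9.92, and hry, a Hairy family repressor of proneural genes, rose (0.4 ± 0.09, adjusted p = 0.0124), from 10.61 to 10.68 to 11.21, 10.99 and 10.92. Both calls were lost without E_EHT replicate 2, with adjusted p of 0.0548 and 0.067. In the other signalling lists single genes passed: pen-2 of Notch processing, Su(fu) of Hedgehog signalling and Wnt6 fell by 0.42, 0.24 and 0.31 (adjusted p = 0.0234, 0.0344 and 0.0415). These calls were lost under 3, 10 and 8 of the 17 alternatives. Of the 11, 15 and 7 genes of these lists, 2, 3 and 1 had every E_EHT array above every E_Ctrl array. In the same order 1, 3 and 2 had every one below. In the Hippo list kibra rose by 0.43 ± 0.1 (adjusted p = 0.0186) and Rae1 fell by 0.31 (adjusted p = 0.0322), besides Ilp8, which rose. The calls for kibra and Rae1 were lost under 5 and 8 alternatives. For 9 of the 20 Hippo genes every E_EHT array lay above every E_Ctrl array, and for 3 below. The Hippo list mean was 9.9 to 9.97 in E_Ctrl and 10.13 to 10.21 in E_EHT. On E_EHT replicate 1, which was left out, it was 9.79. Of 17 polarity genes l(2)gl rose (0.25 ± 0.07, adjusted p = 0.0403), and of 18 septate junction genes Nrg rose (0.33 ± 0.08, adjusted p = 0.0211) and crok and bou fell by 0.41 and 0.32 (adjusted p = 0.0112 and 0.0262). The calls for l(2)gl, Nrg, crok and bou were lost under 10, 7, 1 and 6 alternatives, with adjusted p of up to 0.283, 0.41, 0.0595 and 0.125. For 10 of the 17 polarity genes every E_EHT array lay above every E_Ctrl array, and for 2 below. For the 18 septate junction genes these numbers were 7 and 4. Among 17 cell death regulators egr rose and the initiator caspase gene Dronc fell by 0.38 (adjusted p = 0.035), a call lost under 10 alternatives (up to 0.144). Of 29 glutathione transferase and antioxidant genes GstO3 (-0.5 ± 0.09, adjusted p = 0.00428), GstO2 (-0.29 ± 0.08, adjusted p = 0.0321) and the mitochondrial dismutase gene Sod2 (-0.28 ± 0.08, adjusted p = 0.047) fell, against 4.61% of all genes. GstO3 kept its call under all 17, while GstO2 lost it under 9 and Sod2 under 12, among them the loss of any 1 array. The alternatives were followed for 120 called genes, not all of them named here. Of these, 51 kept their call under every alternative that tested them and 69 lost it under at least 1. Of the 69, 21 lost it only when an array was left out.

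The same interval was measured in discs with EGFR and psqRNAi, on arrays that are not shared with the comparison above. There 395 genes rose (2.95% of the genes tested) and 238 fell (1.78%), together 4.72%. Of the genes that rose in EGFR alone, 111 also rose with psqRNAi, which is 42% of the first list and 28.1% of the second. Of the falls 67 were shared, 10.8% of the falls in EGFR alone and 28.2% of those with psqRNAi. CG10914 was the only gene called in opposite directions (-0.25, adjusted p = 0.045, and 0.24, adjusted p = 0.0486), and its call in EGFR alone was lost under 10 of the 17 alternatives (up to 0.212). The median log2 fold change with psqRNAi was 0.26 for genes that rose in EGFR alone and -0.06 for those that fell.

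Single genes ranged from like values to values near 0 with psqRNAi. Ilp8 had a log2 fold change of 3.01 there, chinmo 1.79, krimp 2.07, Ets21C 1.52 and Hsc70-3 -0.52, each with an adjusted p below the threshold. Drs had -0.21 ± 0.67 and stood at 4.83 to 5.78 on the EP_EHT arrays, against 8.07 or more on those of EGFR alone. CG8160 had -0.16 ± 0.65 and Hsp70Bbb -0.06 ± 0.51. Of the proteasome 4 subunits fell with psqRNAi (median -0.13), of the translocon list 4 (-0.12), and of the cytosolic synthetases and mitochondrial ribosomal proteins none (-0.05 and 0.09).

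Whether the time course differed between the genotypes was tested as an interaction in the same limma model. No gene passed; the smallest adjusted p was 0.0707, and 2177 genes had an unadjusted p below 0.05. For Drs the difference in log2 fold change was 3.7 ± 0.99 (SE, adjusted p = 0.138), for CG8160 3.32 ± 0.96 (adjusted p = 0.15) and for Hsp70Bbb -1.99 ± 0.75 (adjusted p = 0.215). For Ilp8 it was 0.49 ± 0.39 (adjusted p = 0.535). The count depended on the fit, since 345 genes passed without EP_EHT replicate 4 of the other genotype, and 139 passed with array weights. The cause of these shifts was not tested. The rises and falls above are not shown to differ between EGFR alone and EGFR with psqRNAi.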

How the data were processed

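Affymetrix arrays measured total RNA of wing discs after labelling in vitro, per the labels' protocols. The deposited log2 values, 1 per probe set and array, were made by the authors with RMA, a tool listed in the submitters' processing notes beside limma, with no version. RMA evens out the distributions of the arrays, which hides a shift shared by most genes, and it compresses differences of dim probe sets. The background settings, and whether E_EHT replicate 1 was normalized with the others, are not given in the sources used here.

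Of 16322 probe sets, 13441 had 1 gene symbol in the platform annotation, 555 had several and 2326 had none used here. For 37 genes with several probe sets the one with the highest mean was used, which gave 13402 genes, of which 13025 matched the RefSeq gene table (Release 6 plus ISO1 MT) for positions and spans. Positions are those of genes, not of probes.

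One linear model with group means was fitted to 19 arrays, all but E_EHT replicate 1, by lmFit and eBayes of limma (version 3.58.1; R version 4.3.3), with 14 residual and 2.63 prior degrees of freedom and no variance trend. P-values are two-sided and adjusted by Benjamini-Hochberg over all 13402 genes of each of 3 comparisons. The model was tested on simulated data. The number of arrays limits precision, with a median SE of 0.1; arrays have no read depth. No pair of arrays of a group held over 2 genes with identical values.

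The members and the 45 gene lists (843 entries measured) were chosen with earlier results of these data known, and 10 further lists were assembled from gene symbols after the values were seen. Genes eligible to be named were psq and Egfr. Also eligible were up to 15 rises and 15 falls with the largest change among called genes whose arrays do not overlap. From each list, up to 6 members that changed most and every member that passed were eligible. Not all eligible genes are named in the text. ATP8B, tut, Fkbp14, Rpt2, Ire1, PEK, Atf6, nAChRbeta3, CG10914, CG11155, CG31999, CG33509 and ppk13 are outside that rule and were chosen after their values were seen. The alternatives kept E_EHT replicate 1, normalized by quantiles once more, centred the array medians, dropped genes below the 25th percentile of mean level, used a robust trend of the variance, weighted the arrays, fitted the compared groups alone, averaged a gene's probe sets, took the replicate number as a block, left out each array and, chosen after seeing the data, removed a trend on gene span and level (splines with 4 degrees of freedom). A planned motif search in promoters was not run, since no promoter sequences were used here.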

Additional observations from a re-analysis of the deposited data

Results flagged for a closer look

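A sample that stood apart from the other 3 of its group was found for 10 of 189 genes and lists in E_Ctrl, close to the 1 in 20 that chance gives. On E_Ctrl replicate 1, SPH93 was low at 6.12 and Tsf1 high at 8.75. On replicate 3, CG11155 (6.38), upd2 (7.38) and Mtk (7.64) were high, as was the mean of 21 neuron and glia markers (7.49), while the mean of 11 BTB-domain factors was low (8.96). On replicate 4, BomT2 (5.78) and rhea (9.63) were low and Rae1 (10.15) was high. The E_EHT group had 3 arrays and was not tested this way.

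Some values come from data that the comparison did not use. On the discarded array, E_EHT replicate 1, 127 of the 264 rises lay above every E_Ctrl array and 563 of the 618 falls lay below every one. Over all genes tested 23.8% lay above and 54.4% below every E_Ctrl array there, and the median deviation from E_Ctrl was negative in each of 10 classes of gene span (-0.078 to -0.321). On the same array the gut marker mean was 9.37, above the 6.4 to 7.35 of the 7 arrays used, and Jon25Biii stood at 13.71. Among 2881 probe sets without 1 gene symbol, 58 rose and 144 fell in the same test, 10 and 6 of them by at least 2-fold.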

How the results depend on the processing

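Against 264 rises and 618 falls, E_EHT replicate 1 kept gave 169 rises, centring 171 rises, array weights 852 rises and 1386 falls, only the groups compared 453 rises, and the trend on gene span and level removed 398 falls. Falls of at least 2-fold (9) numbered 14 with centring, 15 with array weights and 15 with only the groups compared, and 2-fold rises (25) numbered 40 with array weights. Genes that differed between the genotypes (0) numbered 1 with replicate 1 kept, 2 with quantile normalization, 2 with only the groups compared and 139 with array weights. With psqRNAi, 633 calls became 267 with only the groups compared. Leaving out 1 array gave 79 to 300 rises, 190 to 665 falls, 16 to 30 and 5 to 10 of at least 2-fold, 0 to 345 genes that differed between the genotypes (345 without EP_EHT replicate 4) and 307 to 833 calls with psqRNAi; such fits have fewer samples, and the cause of the other shifts was not tested. Mtk, not called at a log2 fold change of 1.34, was -0.05 without E_EHT replicate 2 and 2.2 without replicate 4.

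Deviations of same-numbered arrays from their group means correlated at 0.23, 0.18 and -0.28, and those of arrays with unlike numbers at -0.24 to 0.3. So few arrays cannot decide whether equal replicate numbers pair them. With the replicate number as a block, 182 genes rose and 439 fell, and 0 differed between the genotypes. No detection call was used, so dim genes such as Spn28F (3.48 to 4.44) are not shown to lie above background. The promoter motif search was not run.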

Other observations

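Calls were spread over the chromosomes. Between 1.8% and 2.29% of the genes on X, 2L, 2R, 3L and 3R rose, and 4 of 69 genes on chromosome 4 did (5.8%), among them CG31999, which stood at 8.68 to 8.84 in E_Ctrl and at 9.88, 9.88 and 10.02 in E_EHT, and CG11155, at 5.88 to 6.38 against 7.13, 7.01 and 7.45. The counts on chromosome 4 are small. Rises whose starts lie within 10000 bases of each other included BomT2 with BomS6, CG33509 with ppk13 (log2 fold changes of 0.88 and 0.87), and Ets21C with nAChRbeta3. Of 24 serpin and clip protease genes only Spn28F rose, from 3.48 to 3.88 in E_Ctrl to 4.24, 4.44 and 3.9 (0.53 ± 0.13, limma adjusted p = 0.0279), a call that was lost under 7 of the 16 alternatives that tested it (up to 0.14).

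Some genes changed from 12 hr to day 4 with psqRNAi but not past the threshold in EGFR alone. Spn100A, a serpin gene, stood at 6.85, 8.61, 8.46 and 7.1 in E_Ctrl and at 6.52, 6.59 and 7.38 in E_EHT (-0.92, limma adjusted p = 0.293), and its log2 fold change with psqRNAi was -2.44 (adjusted p = 0.00654). With psqRNAi the log2 fold change was -2.11 for Blimp-1 (adjusted p = 0.0138) and 1.53 for Tig (adjusted p = 0.0049). The differences between the genotypes did not pass for these 3 (adjusted p = 0.287, 0.344 and 0.461).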
